A study of Homo sapiens with 12 samples.

Results

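The neutrophil-attracting chemokines CXCL1, CXCL2, CXCL3, CXCL5, CXCL6, CXCL8 and CCL20 were followed in HT1376, a human bladder cancer cell line. The 7 genes were taken by symbol from the 60666 genes of the count table, and each symbol matched 1 gene. HT1376 CT (called WT in the labels) is a single-cell clone made with CRISPR and a luciferase guide, and HT1376 FOXP3 KO is a single-cell clone made with guides to FOXP3, so each genotype stood for 1 clone. Each line was left untreated or was given IFNγ (100 ng/mL, 48 hours). The 4 groups have 3 libraries each, numbered 11, 12 and 13, and no source states that these came from separate cultures. The p-values therefore measure the spread between these libraries, which may be technical.

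CXCL1, CXCL2, CXCL3, CXCL5, CXCL6 and CXCL8 are CXC chemokines with the glutamate-leucine-arginine motif ahead of their first cysteines. They bind CXCR2, and CXCL6 and CXCL8 also bind CXCR1, receptors that bring neutrophils out of the blood and into tissue. CCL20 acts on CCR6, which is carried mainly by Th17 cells, B cells and immature dendritic cells, and epithelia make it together with the CXC members under IL-17 and NF-κB. All 7 genes are classical targets of NF-κB downstream of IL-1, TNF and Toll-like receptors, and their transcripts are short-lived because AU-rich elements recruit decay factors. IFNγ is best known among chemokines for inducing the CXCR3 ligands CXCL9, CXCL10 and CXCL11.

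In GRCh38 the 6 CXC genes lie within 358.678 kb of chromosome 4, from 73740519 to 74099196. From the start of the interval they are CXCL8, CXCL6 and CXCL1 on the plus strand, then CXCL5, CXCL3 and CXCL2 on the minus strand. CCL20 lies on chromosome 2, from 227805739 to 227817564. The promoters of the 6 clustered genes share the NF-κB element GGAATTTCC, which was found on either strand in 0.461% of 35116 RefSeq promoters (GRCh38.p14, 300 bases around each gene's start). The stretches around it are shown because they separate the 6 genes into families, with the shared element in capitals, read 5′ to 3′ on the strand of each gene.
CXCL1 (chr4:73869305-73869334, plus): tggaactccgGGAATTTCCctggcccgggg
CXCL2 (chr4:74099253-74099282, minus): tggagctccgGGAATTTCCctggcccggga
CXCL3 (chr4:74038748-74038777, minus): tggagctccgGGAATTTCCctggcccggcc
CXCL5 (chr4:73998748-73998777, minus): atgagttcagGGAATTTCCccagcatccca
CXCL6 (chr4:73836579-73836608, plus): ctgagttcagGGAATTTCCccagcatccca
CXCL8 (chr4:73740468-73740497, plus): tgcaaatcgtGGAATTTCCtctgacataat
CXCL1, CXCL2 and CXCL3 differed from each other at 2 or 3 of these 30 bases, CXCL5 differed from CXCL6 at 1, and CXCL8 differed from the other members at 13 to 16. The first base of the element lay 77 to 91 bases before the RefSeq start of each gene. For some genes, such as CXCL8, this differs from the GENCODE start behind the positions above. CCL20 lacked these letters in its window but held the broader NF-κB consensus, which 5.91% of all promoters hold and which overlaps GGAATTTCC in CXCL1, CXCL2, CXCL3, CXCL5 and CXCL6. The palindrome TTCNNNGAA was found in CXCL5 and CXCL6 (7.66% of all promoters). The forkhead motifs TGTTTAC (3.42% of all promoters) and TAAACA (12.3%) were found in 0 of the 7 windows. Most promoters lack each of these motifs, so their absence here does not set the members apart. Sequence farther from the gene starts was not searched, so forkhead motifs there would have been missed. All motifs given here are matches of letters in the reference sequence and not measurements of binding.

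The libraries held 4490684 to 39270042 counts on genes, and the shallowest was HT1376 CT with IFNγ, library 12. FOXP3 had at most 3 counts in any library and 8 in all, so its counts could not check the labels at this depth. IRF1, an interferon-induced transcription factor, rose with IFNγ in both lines, by 3.83 ± 0.11 (log2, SE) in HT1376 CT and by 2.91 ± 0.11 in HT1376 FOXP3 KO, which matched the treatment labels. CD274, which encodes PD-L1, was 85.6 ± 37.0 CPM in HT1376 CT and 171 ± 41.5 CPM with IFNγ, and 18.5 ± 4.97 and 35.0 ± 8.56 CPM in HT1376 FOXP3 KO, increases that passed in neither line without the replicate block and in both with it. The summed level of 9 epithelial markers was 4015 to 5217 CPM over all libraries, a sum that does not show shifts of single markers. Of the 9, 5 passed between the untreated lines, where 32.1% of all genes did. In the knockout 2 of these had more transcript and 3 had less, or 2 and 4 with the replicate block. EPCAM was at 85.1 ± 16.0 CPM in untreated HT1376 CT and 22.2 ± 1.11 CPM in the untreated knockout. KRT7 was at 645 ± 122 and 1231 ± 304 CPM. The summed level of 11 leukocyte markers was 2.50 to 12.6 CPM, with 3 to 5 of the 11 at 0 counts in each group. The neutrophil elastase gene ELANE was at 0 in all libraries, while CSF3R, the G-CSF receptor, was at 0 in both HT1376 CT groups and at 3.45 ± 3.76 CPM in untreated HT1376 FOXP3 KO. Between the untreated lines 1 of the 7 leukocyte markers tested was higher in the knockout (CSF3R) and 2 were lower, the T cell gene CD3E (-4.10 ± 0.90, log2) and the integrin gene ITGAM (-1.70 ± 0.57). The share over all genes was again 32.1%. With the replicate block 1 leukocyte marker was higher and 3 were lower. Of 6 stromal and endothelial markers, the summed level was 1.82 to 5.13 CPM in HT1376 CT and 135 to 248 CPM in HT1376 FOXP3 KO, mostly from DCN and LUM. Taken singly, 3 of the 6 were higher and 1 was lower in the untreated knockout, with and without the replicate block. Without the block 32.1% of all genes passed. The part of these shifts in the chemokine values was not tested.

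The chemokines were weakly transcribed in HT1376. Levels are given as CPM, the counts scaled to a common library size, after TMM normalization, with the SD over 3 libraries. The 7 genes had 942 counts over the 12 libraries together, and CXCL8 and CXCL2 supplied 78.3% of them. By its mean over all libraries CXCL8 lay above 66.8% of the genes with at least 1 count, CXCL2 above 62.9%, CXCL1 above 54.3%, CXCL3 above 47.0%, CXCL5 above 39.7% and CCL20 above 31.9%. A count of 0 allows 3 counts, a limit that ran from 0.0793 to 0.692 CPM over the libraries and that covers counting error alone. CXCL6 had 0 counts in all 12 libraries, which allows up to 0.0145 CPM over the libraries together.

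The summed level of the 7 genes was 4.54 ± 1.56 CPM in HT1376 CT and 11.4 ± 7.36 CPM in HT1376 CT with IFNγ. In HT1376 FOXP3 KO it was 3.19 ± 0.509 CPM untreated and 3.46 ± 0.712 CPM with IFNγ. The 3 sums of treated HT1376 CT were 5.52, 19.6 and 8.94 CPM, so that the highest was that of the shallowest library. In bulk RNA, fewer cells of a type and less RNA per cell cannot be told apart.

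**Figure D1:**
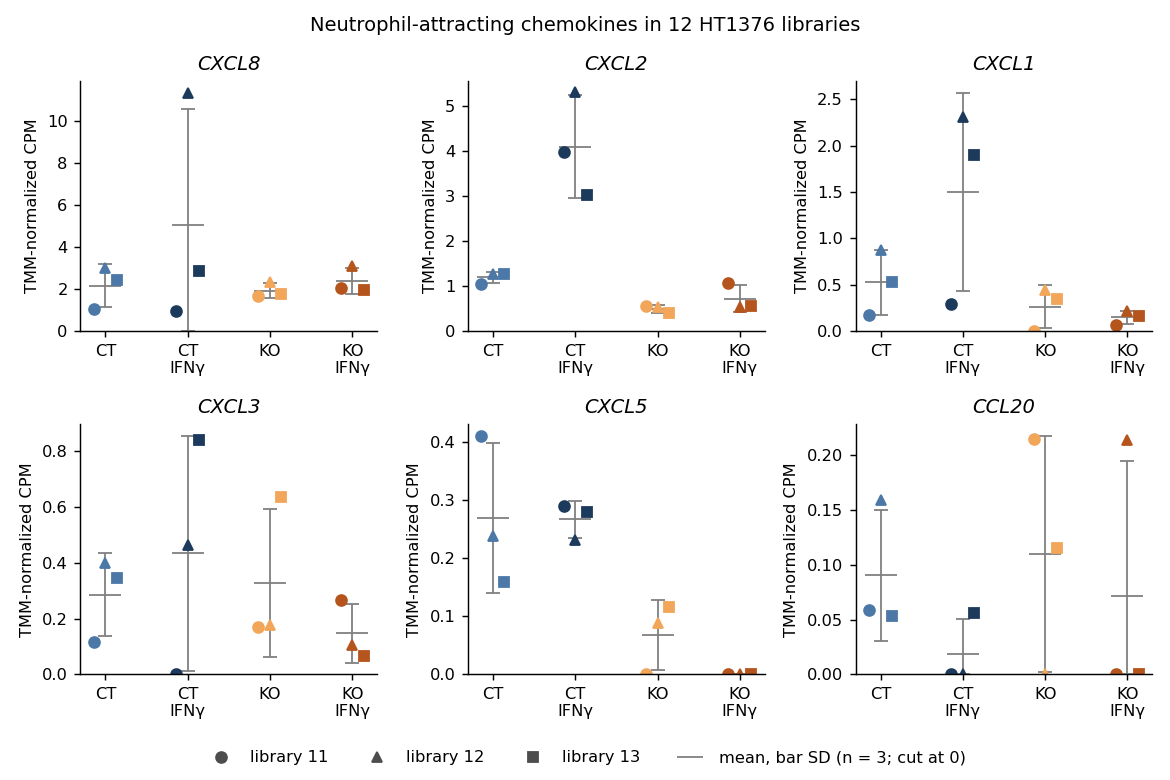
TMM-normalized CPM (vertical axis, linear from 0) of 6 members in each library, by group; symbols mark the libraries numbered 11, 12 and 13, and grey bars the mean and SD (n = 3). CXCL2 in HT1376 CT with IFNγ sits at 3.02 to 5.31 CPM, above all 9 other libraries, whereas CXCL8 there runs from 0.968 to 11.3 CPM. CXCL6 had 0 counts and is not drawn.

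Compared per length, in mean CPM per kb of exon, the order in untreated HT1376 CT was CXCL2 (0.857 ± 0.0894), CXCL8 (0.838 ± 0.390), CXCL1 (0.386 ± 0.256), CXCL3 (0.129 ± 0.0670), CXCL5 (0.110 ± 0.0527) and CCL20 (0.0565 ± 0.0374). The ranges of all neighbours in this order overlapped, and these levels were not tested against each other. Within libraries, CXCL8 was above CXCL1 and CXCL1 above CXCL3 in 3 of 3, while CXCL2 was above CXCL8 in 1 of 3, CXCL3 above CXCL5 in 2 and CXCL5 above CCL20 in 2. With IFNγ the order in HT1376 CT was the same, from CXCL2 at 2.93 ± 0.824 to CCL20 at 0.0117 ± 0.0202 CPM per kb, and CXCL5 (0.110 ± 0.0130) did not overlap CCL20. In untreated HT1376 FOXP3 KO CXCL8 led at 0.744 ± 0.134 CPM per kb and its libraries did not overlap those of CXCL2 at 0.356 ± 0.0595. Among the HT1376 FOXP3 KO libraries given IFNγ, CXCL8 (0.918 ± 0.242) and CXCL2 (0.514 ± 0.217) overlapped although CXCL8 was above CXCL2 in 3 of 3, and CXCL2 did not overlap CXCL1 at 0.109 ± 0.0547 CPM per kb.

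The first comparison asked whether the basal levels differed between the lines. None of the members passed the test between untreated HT1376 FOXP3 KO and untreated HT1376 CT (0 of 6 tested at an adjusted p under 0.05 by the quasi-likelihood test of edgeR), where 32.1% of all genes tested did. CXCL2, which binds CXCR2, was 1.05, 1.27 and 1.27 CPM in HT1376 CT and 0.557, 0.535 and 0.403 CPM in HT1376 FOXP3 KO. The groups did not overlap, and the fitted difference was -1.24 ± 0.45 on the log2 scale (95% interval -2.23 to -0.25, adjusted p = 0.0571). CXCL2 was the 1 member with an unadjusted p under 0.05, as were 42.5% of all genes. It passed with 3 of the alternative settings, given with the other settings at the end.

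CXCL8, the main neutrophil chemoattractant of human epithelia, was 1.05, 3.02 and 2.43 CPM in untreated HT1376 CT and 1.67, 2.32 and 1.79 CPM in untreated HT1376 FOXP3 KO. The knockout libraries lay within the range of the control libraries, and the difference was -0.16 ± 0.41 on the log2 scale (95% interval -1.07 to 0.74, adjusted p = 0.801), an interval that includes no difference. CXCL1, the melanoma growth stimulatory activity factor, was 0.176, 0.874 and 0.529 CPM in HT1376 CT and 0, 0.446 and 0.346 CPM in HT1376 FOXP3 KO. These groups overlapped (log2 difference -1.07 ± 1.02, adjusted p = 0.465).

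CXCL5, also called ENA-78, was 0.410, 0.238 and 0.159 CPM in untreated HT1376 CT and 0, 0.0892 and 0.115 CPM in untreated HT1376 FOXP3 KO. The groups did not overlap, but they rest on 16 and 3 counts, and the difference did not pass (adjusted p = 0.234). Groups without overlap were found for 2 members, CXCL2 and CXCL5, and for 46.4% of all genes tested. CXCL3, at 0.286 ± 0.149 and 0.328 ± 0.265 CPM, and CCL20, at 0.0901 ± 0.0596 and 0.110 ± 0.107 CPM in HT1376 CT and HT1376 FOXP3 KO, overlapped between the lines. Over the 6 members tested the median log2 difference was -0.62, and over all genes it was -0.02.

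The second comparison asked which members responded to IFNγ in each line. In HT1376 CT, CXCL2 rose with IFNγ, from 1.05, 1.27 and 1.27 CPM to 3.97, 5.31 and 3.02 CPM. All treated libraries lay above all untreated ones, and the fitted increase was 1.75 ± 0.37 on the log2 scale (95% interval 0.95 to 2.55, adjusted p = 0.0159), or 3.36-fold. CXCL2 was 1 of 5 members tested that passed, against 5.35% of all genes in either direction and 3.53% that were higher with IFNγ. It was also the 1 member whose groups did not overlap, as for 23.9% of all genes. With the replicate numbers as a block, 18.6% of all genes passed, and CXCL2 was still the 1 member that did (adjusted p = 0.000103). Without HT1376 CT library 11 the adjusted p was 0.0695, without HT1376 CT library 13 it was 0.0662, and without the libraries numbered 12 in both groups it was 0.0556, with log2 differences of 1.67, 1.80 and 1.58.

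CXCL1 in HT1376 CT was 0.176, 0.874 and 0.529 CPM without and 0.290, 2.31 and 1.90 CPM with IFNγ. Treated libraries 12 and 13 lay above all untreated libraries and library 11 did not, and within each number the treated library was the higher (3 of 3). The difference was 1.50 ± 0.76 on the log2 scale (95% interval -0.17 to 3.17, adjusted p = 0.345). The adjusted p was 0.120 with the replicate block and 0.0220 when the bias-adjusted deviance was used as well (difference 1.65), a setting added after the values were seen.

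CXCL8 in HT1376 CT was 1.05, 3.02 and 2.43 CPM without and 0.968, 11.3 and 2.85 CPM with IFNγ. Library 12 alone stood above the untreated range, and it held 4490684 counts, of which 49 were from CXCL8. The fitted difference of 1.09 ± 0.71 on the log2 scale (adjusted p = 0.480) became -0.11 without that library. The library numbered 12 was the highest of its group in CXCL8 and in CXCL1 in 4 of the 4 groups.

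CXCL3 reached 0, 0.462 and 0.838 CPM with IFNγ in HT1376 CT, a range that included the untreated 0.117, 0.397 and 0.344 CPM. CXCL5 was at 0.269 ± 0.128 CPM without and 0.267 ± 0.0317 CPM with IFNγ (log2 difference 0.07, 95% interval -1.84 to 1.99), an interval that leaves a change of several fold in either direction within the error. CCL20 was not tested, with 5 counts without and 1 count with IFNγ. The fitted differences were positive in 5 of the 5 members tested, with a median of 1.09 against -0.02 over all genes.

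In HT1376 FOXP3 KO, 0 of 4 members tested passed with IFNγ, where 0.982% of all genes passed (5.53% with the replicate block, and still 0 members). At an unadjusted p under 0.05 the count was also 0 members, against 5.37% of all genes. CXCL2 was 0.557, 0.535 and 0.403 CPM without and 1.07, 0.534 and 0.554 CPM with IFNγ. Library 11 was the one above the untreated range, and the difference was 0.54 ± 0.54 on the log2 scale (95% interval -0.68 to 1.76, adjusted p = 0.999).

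CXCL8 in HT1376 FOXP3 KO was 1.67, 2.32 and 1.79 CPM without and 2.07, 3.10 and 1.96 CPM with IFNγ. The groups overlapped, with a difference of 0.31 ± 0.34 (log2, 95% interval -0.46 to 1.07). CXCL1 and CXCL3 had negative fitted differences, -0.74 ± 1.25 and -1.16 ± 0.97, on 8 and 7 counts with IFNγ. CXCL5 had 3 counts in the untreated group and 0 with IFNγ, and CCL20 had 7 and 2, too few to test.

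**Figure D2:**
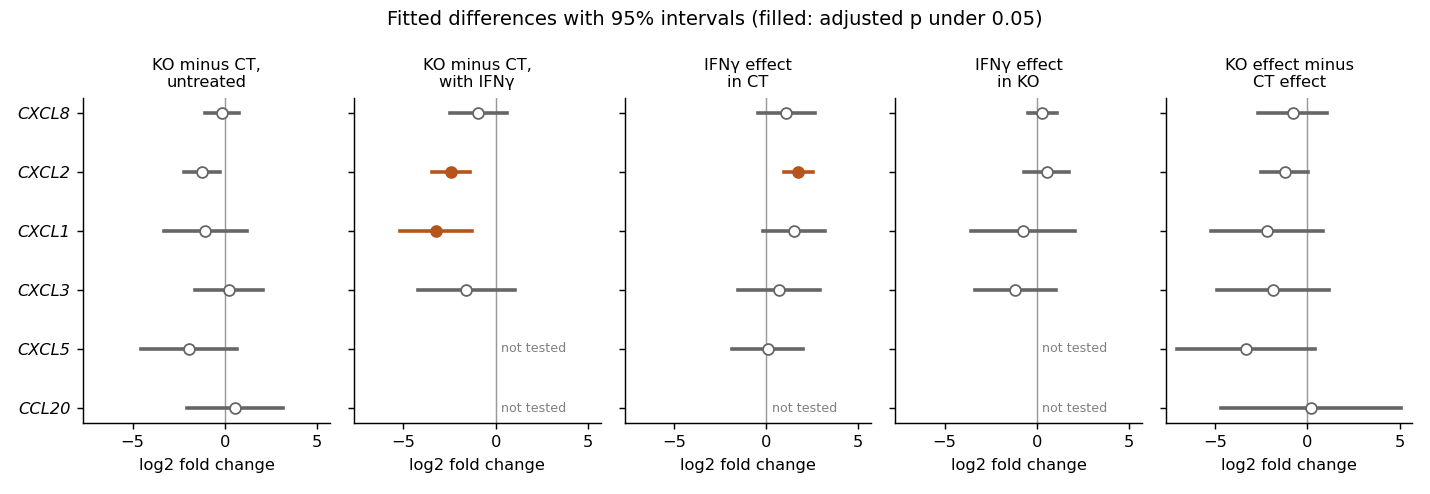
Fitted log2 fold changes (points) with 95% intervals (lines) of 6 members in the 5 comparisons, all on the same horizontal axis; filled points passed an adjusted p under 0.05. The filled points are CXCL2 and CXCL1 in HT1376 FOXP3 KO against HT1376 CT with IFNγ, at -2.42 and -3.22, and CXCL2 with IFNγ in HT1376 CT, at 1.75.

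With IFNγ, CXCL2 and CXCL1 were lower in HT1376 FOXP3 KO than in HT1376 CT. They were 2 of 4 members tested, where 28.9% of all genes tested passed and 15.7% were lower. CXCL2 was 3.97, 5.31 and 3.02 CPM in HT1376 CT and 1.07, 0.534 and 0.554 CPM in HT1376 FOXP3 KO. The groups did not overlap, and CXCL2 was 5.37-fold lower (log2 difference -2.42 ± 0.46, 95% interval -3.44 to -1.41, adjusted p = 0.00223). Its adjusted p was at most 0.0134 when any 1 library was left out.

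CXCL1 with IFNγ was 0.290, 2.31 and 1.90 CPM in HT1376 CT and 0.0669, 0.213 and 0.163 CPM in HT1376 FOXP3 KO. The groups did not overlap, though library 11 of HT1376 CT lay close to the knockout range, and the fitted difference was -3.22 ± 0.88 (log2, 95% interval -5.16 to -1.28, adjusted p = 0.0181), or 9.33-fold lower. It rests on 47 and 8 counts. It did not pass without HT1376 CT IFNγ library 13 (adjusted p = 0.105), without HT1376 FOXP3 KO IFNγ library 11 (0.0663) or without HT1376 FOXP3 KO IFNγ library 13 (0.0579). Groups without overlap were found for these 2 members and for 43.4% of all genes.

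CXCL5 was 0.290, 0.231 and 0.279 CPM in HT1376 CT with IFNγ, from 9 counts, and had 0 counts in HT1376 FOXP3 KO with IFNγ. It held too few counts for the test. CXCL8 with IFNγ overlapped between the lines, with a difference of -0.93 ± 0.69 (log2, adjusted p = 0.358) that became 0.29 without HT1376 CT IFNγ library 12. CXCL3, at 0, 0.462 and 0.838 CPM against 0.267, 0.107 and 0.0652 CPM, also overlapped (-1.58 ± 1.19, adjusted p = 0.367).

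The difference in the IFNγ effect between both lines was fitted as an interaction on the 12 libraries, and 0 of 6 members passed, against 0.111% of all genes (1.21% with the replicate block, and still 0 members). At an unadjusted p under 0.05 the count was 0 members and 6.21% of all genes. For CXCL2 the response in HT1376 FOXP3 KO minus that in HT1376 CT was -1.22 ± 0.60 on the log2 scale (95% interval -2.50 to 0.05, adjusted p = 0.822). For CXCL1 it was -2.19 ± 1.43 and for CXCL8 -0.79 ± 0.88. A smaller response of CXCL2 in the knockout line was thus not separated from no difference at this depth, although CXCL2 passed in 1 line and not in the other.

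CXCL1, CXCL2 and CXCL3 are close copies, and how reads matching several genes were counted is not given in the sources used here. Of the 150-base stretches of their transcripts, 1.96% of those of CXCL2 and 1.15% of those of CXCL3 were identical between these 2 genes, and 0 for CXCL1. With the 3 genes summed, IFNγ raised the total in HT1376 CT (log2 difference 1.58 ± 0.36, adjusted p = 0.0242) and the total was lower in HT1376 FOXP3 KO than in HT1376 CT with IFNγ (-2.51 ± 0.41, adjusted p = 0.000820). The sum did not pass between the untreated lines (-0.88 ± 0.41, adjusted p = 0.132), with IFNγ in HT1376 FOXP3 KO (-0.08 ± 0.46, adjusted p = 0.999) or in the interaction (-1.66 ± 0.57, adjusted p = 0.644).

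Over the 12 libraries the members followed each other loosely. On log2 CPM, CXCL1 and CXCL8 had the highest Pearson r among pairs of members (0.674, n = 12 libraries), then CXCL1 and CXCL2 (0.649), while CXCL2 and CCL20 had the lowest (-0.432). These values are descriptions of libraries that share lines and treatments. Among 15472 genes with a mean of at least 1 CPM, those most like the mean Z-score of the members were CCDC15 (r = 0.898), IL1A (0.896), SLC30A6 (0.891), SLPI (0.890) and MDGA2 (0.887). The most similar gene was RICTOR for CXCL2 (0.969), VIPR1 for CXCL5 (0.964), ADAMTS16 for CXCL1 (0.924), TBC1D8B for CXCL8 (0.889), SDSL for CXCL3 (0.847) and NUDT8 for CCL20 (0.810).

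IL1A, which encodes an alarmin of epithelia that signals to NF-κB through the IL-1 receptor, was at 10.4 ± 5.66 CPM in HT1376 CT and 20.0 ± 12.2 CPM with IFNγ. In HT1376 FOXP3 KO it was at 5.23 ± 1.17 and 5.20 ± 1.68 CPM. SLPI, a secreted inhibitor of neutrophil elastase, averaged 20.5 and 22.9 CPM in HT1376 CT and 9.09 and 6.53 CPM in HT1376 FOXP3 KO, untreated and with IFNγ.

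The neighbours of the CXC members on chromosome 4 set the scale of transcription there. Within 500 kb of the cluster the annotation holds 13 further protein-coding genes, of which 12 were in the count table. The platelet chemokines PF4V1, PF4 and PPBP, which lie among the members, had 0, 1 and 1 counts in all. Beyond CXCL2, the EGFR ligands EPGN, EREG and AREG were abundant in untreated HT1376 CT, at 91.9, 74.5 and 426 mean CPM per kb, against 0.857 for CXCL2.

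All of these EGFR ligands were lower in untreated HT1376 FOXP3 KO, a comparison in which 32.1% of all genes tested passed in either direction. AREG differed by -4.84 ± 0.36 (log2, adjusted p = 2.64e-06), EREG by -2.87 ± 0.35 and EPGN by -1.23 ± 0.20. MTHFD2L, a mitochondrial folate enzyme next to CXCL2, differed by -0.76 ± 0.20. On the other flank, before CXCL8, genes went both ways. RASSF6 was higher by 4.78 ± 0.44, AFP by 3.83 ± 0.98 and AFM by 3.44 ± 1.18, though AFM did not pass with the replicate block (adjusted p = 0.0691). AFP and AFM were near the floor in HT1376 CT, at 0.0264 ± 0.0458 and 0.0176 ± 0.0305 CPM untreated and at 0 with IFNγ. The sizes of their differences are therefore uncertain. ANKRD17, on that same flank, was lower (-0.34 ± 0.11). With IFNγ, where 28.9% of all genes passed, AREG, EREG, EPGN and MTHFD2L were again lower (-5.03, -3.19, -0.84 and -0.89). RASSF6 and AFP were higher (4.92 and 5.52 ± 1.68), AFP not with the replicate block (adjusted p = 0.0762). None of the neighbours passed with IFNγ in either line, where 5.35% (HT1376 CT) and 0.982% (HT1376 FOXP3 KO) of all genes passed. With the replicate block, where 18.6% of all genes passed, AREG (adjusted p = 0.0388), EREG and EPGN passed in HT1376 CT. Their log2 differences with IFNγ, fitted without the block, were 0.12, 0.26 and -0.32, and thus not in 1 direction.

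**Figure D3:**
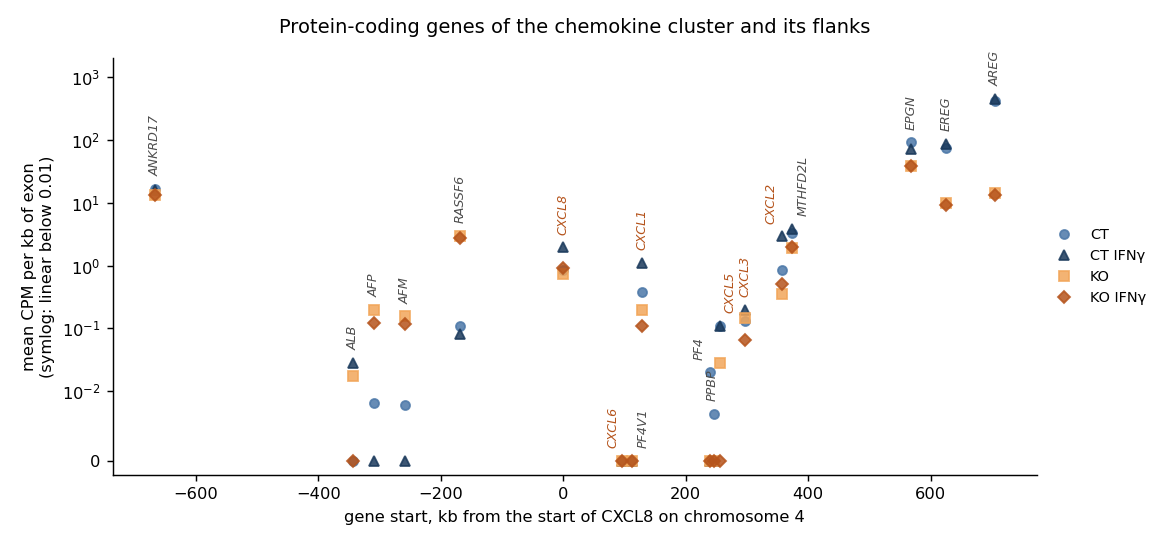
Mean CPM per kb of exon (vertical axis, log scale that is linear below 0.01) of protein-coding genes against the distance of their start from that of CXCL8 in kb; symbols are the 4 groups, and members are labelled in orange. The members lie between 0 and 2.93 CPM per kb, and AREG reaches 426 in untreated HT1376 CT and 14.6 in untreated HT1376 FOXP3 KO.

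The receptors of the members were at the edge of detection. CXCR2 had 49 counts over the 12 libraries, CXCR1 25, CCR6 5 and the scavenging receptor ACKR1 0. CXCR1 was 0.325 ± 0.227 CPM in untreated HT1376 CT, 0.0186 ± 0.0323 CPM in HT1376 CT with IFNγ, and had 0 counts in the 6 libraries of HT1376 FOXP3 KO. Of the list of 23 chemokine receptors, 7 were higher and 2 lower among 15 tested between the untreated lines (5 and 2 with the replicate block), where 32.1% of all genes passed. XCR1, the receptor of the lymphotactins, was 0.831 ± 0.254 CPM in HT1376 CT and 22.4 ± 8.95 CPM in HT1376 FOXP3 KO (log2 difference 4.67 ± 0.35), and CCR1 was higher by 2.85 ± 0.84. Among 12 tested with IFNγ, where 28.9% of all genes passed, 6 were higher in the knockout line and 2 lower, namely CCRL2 (-1.68 ± 0.57) and ACKR4 (-1.59 ± 0.50). IFNγ raised 2 of 12 in HT1376 CT, among them CCRL2 (3.61 ± 0.70), and 0 of 14 in HT1376 FOXP3 KO, against 5.35% and 0.982% of all genes called. With the replicate block these counts were 4 and 2, against 18.6% and 5.53%. In the interaction 0 of 17 receptors passed (1 lower with the block), against 0.111% of all genes (1.21% with the block).

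Other chemokines rose with IFNγ in both lines, and their list was not tested against the members. In HT1376 CT, 6 of 13 other chemokines tested rose (8 with the replicate block) and 0 fell, against 5.35% of all genes called, with a median log2 difference of 3.45. CXCL10, a CXCR3 ligand, went from 0.314 ± 0.137 to 74.4 ± 43.7 CPM (log2 difference 7.73 ± 0.60), and CXCL11 rose by 5.97 ± 0.49. In HT1376 FOXP3 KO, 4 of 12 rose (8 with the block), against 0.982% of all genes, with CXCL10 going from 0.721 ± 0.510 to 18.5 ± 7.10 CPM (4.78 ± 0.49) and CX3CL1 rising by 4.32 ± 0.82. Between the lines with IFNγ, where 28.9% of all genes passed, 5 of 13 were lower in HT1376 FOXP3 KO, including CXCL9 (-2.50 ± 0.58) and CCL3 (-2.54 ± 0.87, which did not pass with the replicate block, adjusted p = 0.0606), and CCL28 was higher (1.50 ± 0.51), as were 3 chemokines with the block. Between the untreated lines, where 32.1% of all genes passed, CXCL16 was lower (-1.20 ± 0.18) and CCL5 higher (1.98 ± 0.65), with 2 higher under the block. In the interaction 0 of 14 passed (2 lower with the replicate block), against 0.111% of all genes (1.21% with the block).

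The cytokines, receptors and NF-κB genes of the pathways that induce the members, with other targets of NF-κB, differed widely between the lines. Of a list of 64 inducers and NF-κB feedback genes, 29 were lower and 9 higher in untreated HT1376 FOXP3 KO among 58 tested, with a median log2 difference of -0.59 against -0.02 over all genes, of which 32.1% passed in either direction. LIF, an IL-6 family cytokine, was 42.7 ± 13.2 CPM in HT1376 CT and 0.394 ± 0.459 CPM in HT1376 FOXP3 KO. IL1R2, the decoy receptor for IL-1, was 286 ± 100 and 1.48 ± 0.822 CPM (-7.70 ± 0.43). The cytokine gene IL1B (2.83 ± 0.59) and IL36RN (1.70 ± 0.25), an antagonist of IL-36, were higher, so that the members of this list did not move in 1 direction.

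With IFNγ, 29 of 57 genes of this list were lower and 3 higher (5 with the replicate block) in HT1376 FOXP3 KO, where 28.9% of all genes passed and 15.7% were lower. TLR4, the receptor for lipopolysaccharide, was 18.2 ± 6.16 CPM in HT1376 CT and 0.100 ± 0.146 CPM in HT1376 FOXP3 KO, and IL18 (1.29 ± 0.22) and IRAK4 (1.20 ± 0.18) were higher in the knockout. IFNγ raised 12 of 57 genes in HT1376 CT (29 with the replicate block, which also called 1 lower) and 3 of 54 in HT1376 FOXP3 KO (16 with the block), in both lines with the adhesion receptor gene ICAM1 and the macrophage growth factor gene CSF1 as the leading genes. Over all genes 5.35% and 0.982% passed in these comparisons, or 18.6% and 5.53% with the block. CSF1 rose by 3.08 ± 0.33 in HT1376 CT and by 2.31 ± 0.31 in HT1376 FOXP3 KO. In the interaction 2 of 58 genes, ICAM1 and SOD2, passed, both with a negative difference (5 with the block), against 0.111% of all genes (1.21% with the block).

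**Figure D4:**
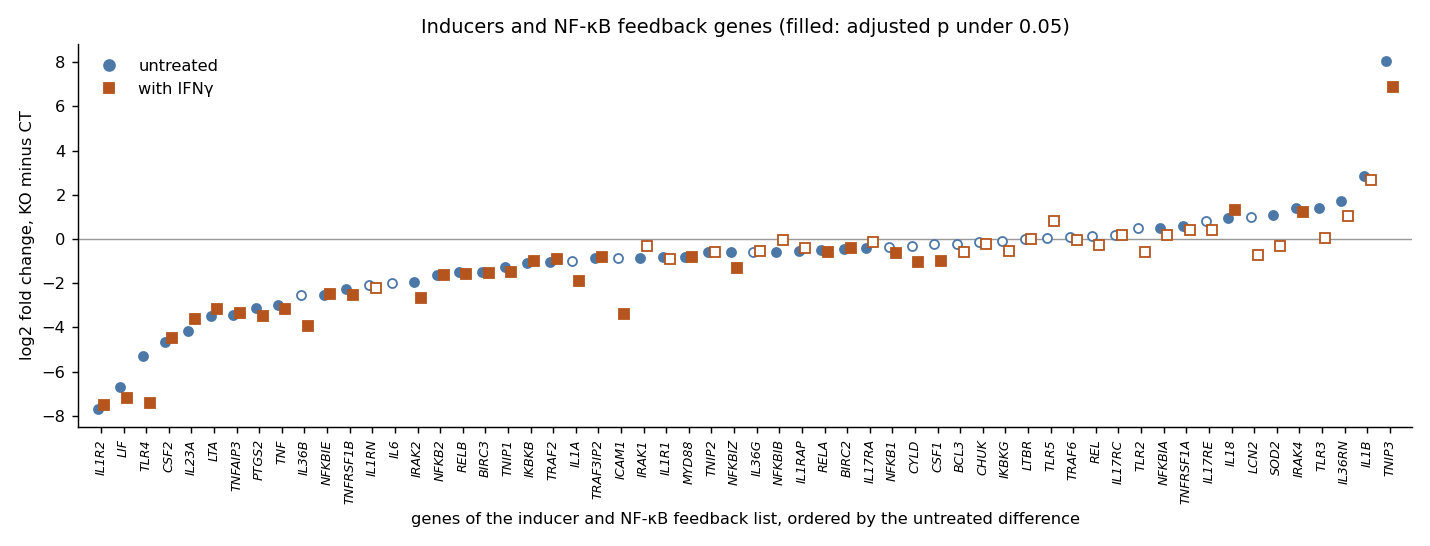
Log2 fold change of HT1376 FOXP3 KO minus HT1376 CT (vertical axis) for each tested gene of the inducer and NF-κB feedback list, untreated (circles) and with IFNγ (squares); filled symbols passed an adjusted p under 0.05. Untreated, 29 filled circles lie below 0 and 9 above, and with IFNγ 29 filled squares lie below and 3 above.

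Factors that act on AU-rich chemokine transcripts also differed between the lines. Of 15 genes of transcript decay, 6 were lower and 2 higher in untreated HT1376 FOXP3 KO, where 32.1% of all genes passed, with a median log2 difference of -0.25 against -0.02 over all genes. ZC3H12A, the endonuclease Regnase-1 that cleaves cytokine transcripts, was 14.6 ± 2.45 and 8.29 ± 1.19 CPM (-0.79 ± 0.20), and ZFP36, which binds AU-rich elements and recruits deadenylases, was 31.6 ± 5.19 and 21.1 ± 0.624 CPM (-0.57 ± 0.15). Its relative ZFP36L1 (0.51 ± 0.16) and the translational repressor TIA1 (0.37 ± 0.11) were higher. IFNγ raised 3 of 15 in HT1376 CT, including ZFP36 (0.77 ± 0.14) and ZC3H12A (0.73 ± 0.18), and 0 of 15 in HT1376 FOXP3 KO, against 5.35% and 0.982% of all genes. With the replicate block 5 were higher and 2 lower in HT1376 CT, and 1 was higher in HT1376 FOXP3 KO, against 18.6% and 5.53% of all genes. With IFNγ 6 were lower and 1 higher in HT1376 FOXP3 KO (28.9% of all genes passed), the lower ones including ARID5A (-1.24 ± 0.35), which stabilizes cytokine transcripts, and ZC3H12A (-1.06 ± 0.20), and ZFP36L1 being the higher one (0.52 ± 0.13). In the interaction 0 of 15 passed, against 0.111% of all genes.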

How the data were processed

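Total RNA of the 12 libraries was extracted with Trizol and made into libraries with the KAPA RNA HyperPrep kit after removal of ribosomal RNA. The authors aligned the reads with STAR 2.7.11a to GRCh38 (Ensembl annotation), removed Mycoplasma reads with Kraken, and deposited whole-number counts per gene from htseq-count, without normalization. Whether strand was used and how multimapping reads were counted is not given in the sources used here. The dose and the duration of IFNγ come from the study's methods.

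The counts were fitted with edgeR 4.0.16 (R 4.3.3, TMM, quasi-likelihood test) on the 6 libraries of each comparison, and on 12 for the interaction, for genes that summed to 10 counts or more. Benjamini-Hochberg adjusted p-values over all genes tested were called under 0.05. CPM use TMM factors over 12 libraries, and correlations use log2 CPM with a prior count of 2. Intervals are at 95%. Gene positions come from GENCODE, and promoter sequences from RefSeq. The models were tested on simulated data, with changes placed only in genes above a mean of 1 CPM. Members with a lower mean, such as CXCL1, CXCL3, CXCL5 and CCL20, were thus not covered by it.

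The members and the lists were chosen with earlier results of these data known. The genes named from the lists were, per comparison, up to 2 increases and 2 decreases of the largest fitted size past the threshold whose groups did not overlap and that had more than 3 counts in some library of each group, together with the 7 members, the annotated neighbours, the most similar genes, FOXP3, and IRF1, GBP1 and CD274 as checks of the treatment. A further check gene is not reported here. Genes at the ends of these lists that did not meet all conditions were not named. The marker genes EPCAM, KRT7, ELANE, CSF3R, CD3E, ITGAM, DCN and LUM were named after their values were seen.

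Alternatives were DESeq2 1.42.0, its size factors in edgeR, 2 other filters, the bias-adjusted deviance, a replicate block, all 12 libraries in 1 fit, the sum of CXCL1, CXCL2 and CXCL3, and leaving out each library in turn. Deviations from the group means of equally numbered libraries correlated over genes with a mean of at least 1 CPM (r of 0.321 to 0.382 within HT1376 CT, 0.428 to 0.564 within HT1376 FOXP3 KO and 0.126 to 0.338 between the lines). For differently numbered libraries r was -0.273 to -0.0674, -0.441 to 0.0209 and -0.290 to 0.161. The ranges were apart within each line and overlapped between the lines. The numbers were taken to pair the libraries, which rests mainly on the values within each line. No source states what the numbers mark.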

Additional observations from a re-analysis of the deposited data

Results flagged for a closer look

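The IFNγ response differed between the lines for 2 genes of the inducer and NF-κB feedback list, the NF-κB targets ICAM1 and SOD2, and for 2 genes that were taken as checks of the treatment, by the interaction over the 12 libraries (adjusted over all genes, edgeR's quasi-likelihood test). ICAM1 rose from 10.3 ± 4.48 to 627 ± 186 CPM in HT1376 CT and from 5.65 ± 0.811 to 57.1 ± 13.4 CPM in HT1376 FOXP3 KO, with a difference in response (HT1376 FOXP3 KO minus HT1376 CT) of -2.59 ± 0.42 on the log2 scale (adjusted p = 0.0199). SOD2, which encodes the mitochondrial superoxide dismutase, went from 60.4 ± 4.75 to 226 ± 72.2 CPM in HT1376 CT and from 125 ± 0.948 to 175 ± 21.0 CPM in HT1376 FOXP3 KO, with a difference in response of -1.42 ± 0.25 (adjusted p = 0.0403). For IRF1, an interferon-induced transcription factor, the difference in response was -0.93 ± 0.15 (adjusted p = 0.0171). For GBP1, an interferon-induced GTPase, it was -3.08 ± 0.21 (adjusted p = 2.29e-06), with 5.89 ± 1.42 CPM in untreated HT1376 CT, 45.4 ± 6.15 CPM in untreated HT1376 FOXP3 KO and 822 ± 67.2 and 744 ± 41.2 CPM with IFNγ. No neutrophil-attracting chemokine was among the genes that passed.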

How the results depend on the processing

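For 25 fitted results of the members, 389 values were recomputed under the alternatives. Of these, 361 kept the direction and did not cross the threshold, including some DESeq2 values that had no adjusted p. Another 6 lost and 4 gained the call, and 18 changed sign, all of the latter in results that were not called. The count of members called between the untreated lines was 1 (CXCL2, in place of 0) under filterByExpr, the bias-adjusted deviance and all 12 libraries in 1 fit (adjusted p of 0.0355, 0.0416 and 0.0352). For IFNγ in HT1376 CT it was 2 (CXCL1 and CXCL2) with the replicate block and the bias-adjusted deviance, 0 without the libraries numbered 12, and 0 to 1 with 1 library left out. The first of these settings and the second were added after the values were seen. For the lines with IFNγ it was 1 under filterByExpr, where CXCL1 was not tested, and 1 to 2 with 1 library left out. The replicate block by itself changed no call of a member. Without the libraries numbered 12, CXCL8 reversed to 0.053 between the lines with IFNγ and to 0.14 in the interaction. The interaction of CCL20 reversed to -0.59 with the bias-adjusted deviance, -0.37 with the replicate block, -0.48 with both and -4.21 without the libraries numbered 12. With 1 library left out, values ranged from -0.63 to 0.60 for CXCL3 and -0.45 to 0.14 for CXCL8 between the untreated lines. With IFNγ in HT1376 CT they ranged from -0.73 to 1.29 for CXCL3, -0.24 to 0.51 for CXCL5 and -0.11 to 1.63 for CXCL8. For CXCL8 they ranged from -1.47 to 0.29 between the lines with IFNγ and from -1.28 to 0.44 in the interaction, and for CCL20 from -2.80 to 2.48 in the interaction. The cause was not tested. The number of genes called over the whole table moved from 1307 to 4530 with the block for IFNγ in HT1376 CT, from 237 to 1334 in HT1376 FOXP3 KO and from 31 to 336 in the interaction.

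The members held 0 to 92 counts per gene and library, which limits the precision of every value given for them. Each line was 1 clone, so the knockout and other differences between the clones cannot be told apart.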
